A study of Mus musculus with 12 samples.

Results

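The G1 phase of the cell cycle is run by a small set of kinases, their cyclins and their inhibitors. D-type cyclins (Ccnd1, Ccnd2, Ccnd3) and E-type cyclins (Ccne1, Ccne2) activate kinases that phosphorylate the retinoblastoma protein, the product of Rb1, and so release the E2F factors that drive entry into S phase. The inhibitors of the Cip/Kip family (Cdkn1a, coding for p21, and Cdkn1b, coding for p27) hold these kinases back. Those of the Ink4 family (from Cdkn2a and Cdkn2b) act on CDK4 and CDK6, the partners of D cyclins. In the fetal testis germ cells stop cycling and rest in G1, whereas in the fetal ovary they enter meiosis, so the 2 kinds of gonad differ in how their germ cells leave the mitotic cycle.

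Levels of 10 genes, the 4 inhibitors, Rb1 and the 5 cyclins, were taken by their names on the array from 12 single-colour Agilent arrays of E14.5 mouse gonads, and these 10 are among 18844 genes that were tested. They were measured by 17 probes, of which 17 passed the filter on dim probes, and each gene had at least 1 probe well above background on every array. All animals were of mixed background, tamoxifen had been given to the pregnant mothers at E9.5 and E10.5, and RNA came from 1 pair of gonads for each array. The 3 control testes carried Smad4Flox/+, StellaMerCreMer and Stra8+/-. Control ovary 1 had that genotype too, control ovary 2 was Smad4Flox/+ Stra8+/- and control ovary 3 was Smad4Flox/Flox Stra8+/-, and neither of the latter carried Cre. The 3 Smad4 (Stella) ovaries were Smad4flox/flox with MerCreMer and Stra8+/-, and the 3 DKO ovaries were Smad4flox/flox with MerCreMer and Stra8-/-. Thus every gonad except the DKO ovaries was heterozygous for Stra8. The Stella promoter drives Cre in germ cells only and with an efficiency that varies between animals, and whole gonads were measured, so that fewer cells of a type and less RNA per cell cannot be told apart. Nothing in the labels says whether the embryos came from separate litters, and p-values measure only the spread between these samples.

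The level of a gene is given here as the relative log2 level, the log2 intensity minus the 75th percentile of the array, with the mean taken over its probes. Values of one gene can be compared between arrays, whereas values of different genes cannot, since each probe has its own brightness. Replicates correlated with r between 0.975 and 0.994 over all genes, and 58.8% (control ovary 1) to 70.5% (control ovary 2) of probes were well above background. The Smad4 transcript, measured in whole gonads, was lower in DKO than in control ovaries by -0.13 on the log2 scale, which did not pass the test (limma adjusted p = 0.563), and Stra8 transcript was 2.02-fold lower in DKO ovaries (limma adjusted p = 0.00271). Sertoli markers separated the gonads by sex, with a summed level on a linear scale of 113 to 124 in testes and 1.76 to 3.01 over the 9 ovaries, and Foxl2 was not well above background in any testis. Over the 3 control ovaries such sums were 0.24 to 4.24 for skeletal muscle markers, 0.913 to 3.03 for mesonephric and 16.5 to 69.4 for erythroid ones. Testes 1 to 3 lay on slide 1 with control ovary 1, control ovaries 2 and 3 on slide 2 with DKO ovaries 1 and 2, and the Smad4 (Stella) ovaries on slide 3 with DKO ovary 3.

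Ccne2 had the widest range of the 10 genes across the 4 groups. Cyclin E2 is a partner of CDK2 at the G1 to S transition. It was measured by 2 probes on chromosome 4, at chr4:11130171-11130230 and chr4:11130287-11130346 of the mm9 build, on the plus strand. Probe sequences of 3 genes are shown 5′ to 3′, the first because it carries the Ccne2 result and the others because Cdkn1b and Rb1 were seen differently by different probes. Each can be read without a stop codon in at least 1 of its 3 frames, and capitals are not used since no part of a probe is set apart. The span that the array lists for the Cdkn1b probe is 59 bases, while its sequence has 60.
Ccne2, chr4:11130171-11130230, plus strand: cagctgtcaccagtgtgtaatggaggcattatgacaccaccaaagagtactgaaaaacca
Cdkn1b, chr6:134871103-134871161, plus strand: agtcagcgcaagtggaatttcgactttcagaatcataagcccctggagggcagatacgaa
Rb1, chr14:73662360-73662419, minus strand: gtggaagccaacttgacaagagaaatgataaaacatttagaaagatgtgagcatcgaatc

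The relative level of Ccne2 was 0.60, 0.45 and 0.74 in control ovaries, and the Smad4 (Stella) ovaries came next at 0.41, 0.40 and 0.16. In DKO ovaries it was -1.92, -2.02 and -1.61, and in control testes -1.74, -2.11 and -2.04. The DKO ovaries thus lay among the testes and apart from the other 6 ovaries, with no overlap. Ccne2 was 5.46-fold lower in DKO than in control ovaries (log2 change -2.45 ± 0.15, SE, limma adjusted p = 5.92e-06, n = 3 and 3). It was 4.51-fold lower in DKO than in Smad4 (Stella) ovaries (log2 change -2.17 ± 0.15, limma adjusted p = 2.75e-05), and 5.91-fold lower in testes than in control ovaries (log2 change -2.56 ± 0.15, limma adjusted p = 4.6e-07). Between DKO ovaries and testes the difference was 0.11 on the log2 scale, with a 95% confidence interval from -0.21 to 0.44 (limma adjusted p = 0.575). Smad4 (Stella) ovaries were lower than control ovaries by -0.27 on that scale, which did not pass the test (limma adjusted p = 0.319), although their arrays did not overlap.

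Both Ccne2 probes gave this order. The probe printed above had a mean of 1.02 ± 0.18 (SD, n = 3) in control ovaries, 0.76 ± 0.11 in Smad4 (Stella) ovaries, -1.42 ± 0.25 in DKO ovaries and -1.55 ± 0.23 in testes. The other probe had means of 0.18 ± 0.12, -0.12 ± 0.18, -2.28 ± 0.18 and -2.38 ± 0.16 in the same order of groups. Within slide 2, where 2 DKO and 2 control ovaries lay side by side, the difference in Ccne2 was -2.57, and within slide 3 the single DKO ovary differed from the 3 Smad4 (Stella) ovaries by -1.93. Most markers of meiotic germ cells were lower in DKO ovaries too. Of 8 such markers 7 were called lower in DKO than in control ovaries, beside 7.98% of all genes. The 7 include Stra8, the gene deleted in DKO ovaries by genotype, with a mean relative level of 5.43 there and 6.44 in control ovaries. The summed linear level of the 8 markers, Stra8 included, was 205 to 237 in control ovaries, 162 to 192 in Smad4 (Stella) ovaries, 70.8 to 94.3 in DKO ovaries and 6.33 to 7.69 in testes. For this sum the DKO ovaries lay between the other ovaries and testes. Unlike Ccne2, all 8 markers were called higher in DKO ovaries than in testes, by 0.76 to 8.05, beside 12.7% of all genes. Markers of germ cells of both sexes summed to 141 to 169, 117 to 139, 116 to 153 and 101 to 125. Of the 7 on the array, Dnd1, Dppa3 and Tdrd1 were higher in DKO than in control ovaries, by 2.49, 2.33 and 1.38, and Tex101 was lower by -2.32, so that this sum adds changes of opposite sign. Ddx4, Dazl and Mael differed by 0.14, -0.08 and 0.03 and were not called. The part of germ cell number in the Ccne2 level was not tested. Among 18811 other genes, the profiles most like that of Ccne2 over the 12 arrays were those of Pparg and Slc22a21, each with a Pearson r of 0.99.

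**Figure D1:**
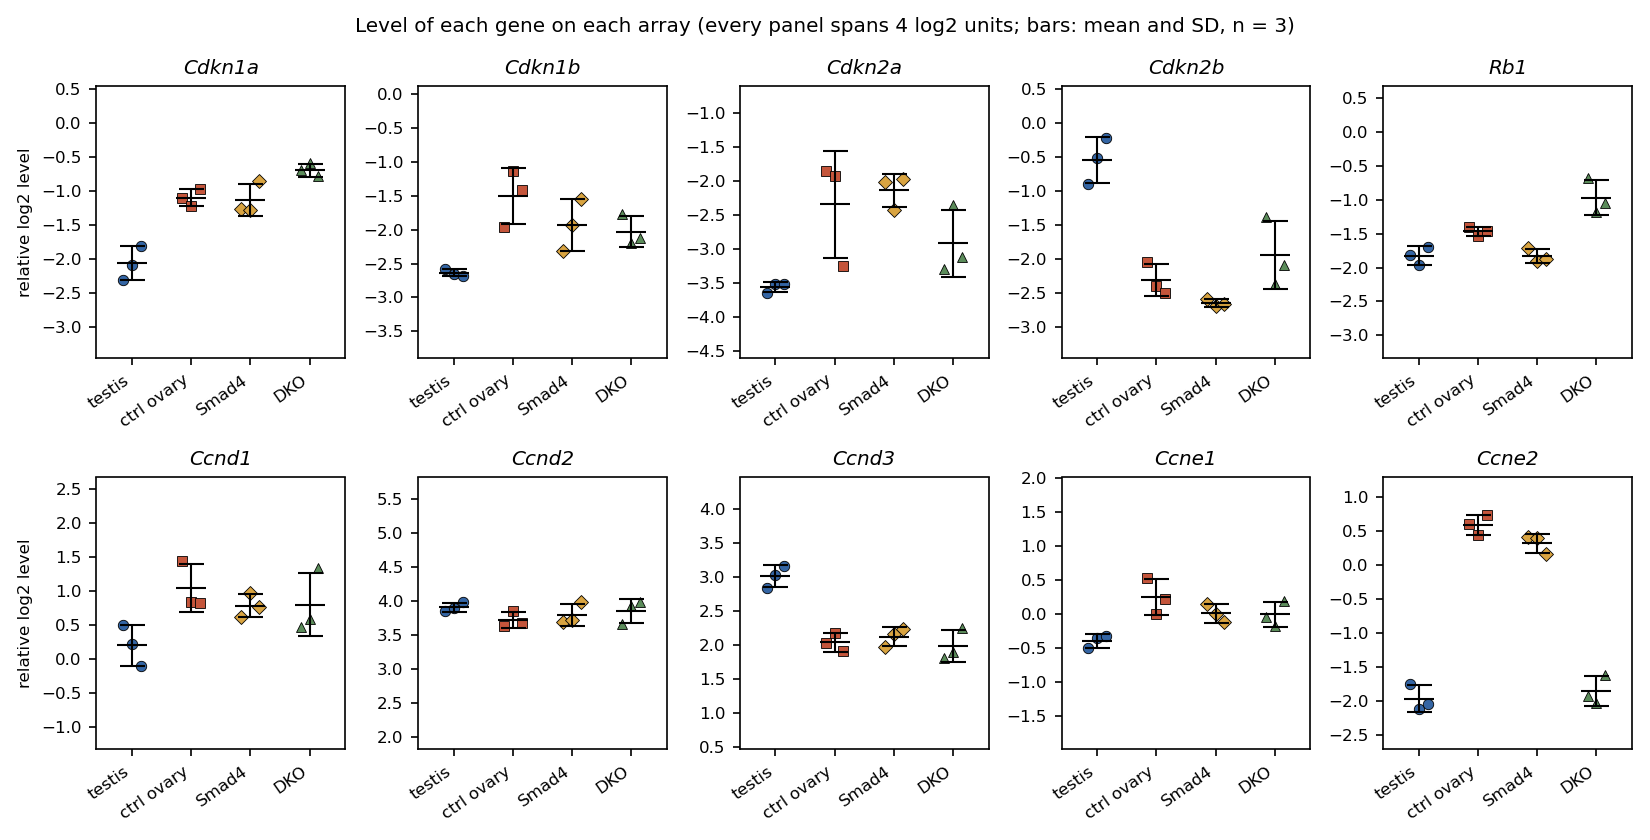
Relative log2 level of the 10 genes on each of the 12 arrays by group (points), with the mean and SD of the 3 arrays of a group (bars); every panel spans 4 log2 units. Ccne2 of DKO ovaries lies between -2.02 and -1.61, at the level of the testes, while control ovaries lie between 0.45 and 0.74.

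Ccne1, the other E cyclin, was called between testes and control ovaries and in no comparison among ovaries. Its relative level was 0.52, -0.01 and 0.22 in control ovaries and -0.51, -0.36 and -0.32 in testes. Smad4 (Stella) ovaries had values of 0.15, -0.01 and -0.12, while those of DKO ovaries were -0.04, -0.18 and 0.19. The testes lay below all ovaries, and the 3 groups of ovaries overlapped. It was 1.56-fold lower in testes than in control ovaries (log2 change -0.64 ± 0.15, limma adjusted p = 0.00528), and differed between DKO and control ovaries by -0.25 (95% confidence interval -0.58 to 0.08, limma adjusted p = 0.274). DKO ovaries were above testes by 0.39 (limma adjusted p = 0.0664), and with slide as a block by 0.71, which passed (limma adjusted p = 0.0427). The change in testes fell short of 1.5-fold without testis 1 (-0.58) or without control ovary 1 (-0.50). The 2 probes of Ccne1, which the array lists at one and the same place, disagreed. The brighter one had means of 3.31 ± 0.34 in control ovaries, 2.93 ± 0.17 in Smad4 (Stella) ovaries, 2.77 ± 0.23 in DKO ovaries and 2.15 ± 0.02 in testes, whereas the dimmer one stayed between -2.93 and -2.78 in all 4 groups. Tested by itself, the brighter probe was lower in testes than in control ovaries by -1.17 (limma adjusted p = 0.000318 over 27311 probes), was higher in DKO ovaries than in testes by 0.62 (limma adjusted p = 0.0176), and differed between DKO and control ovaries by -0.54 (limma adjusted p = 0.048), a change of less than 1.5-fold. The mean of both probes therefore gives a smaller change than the brighter probe.

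**Figure D2:**
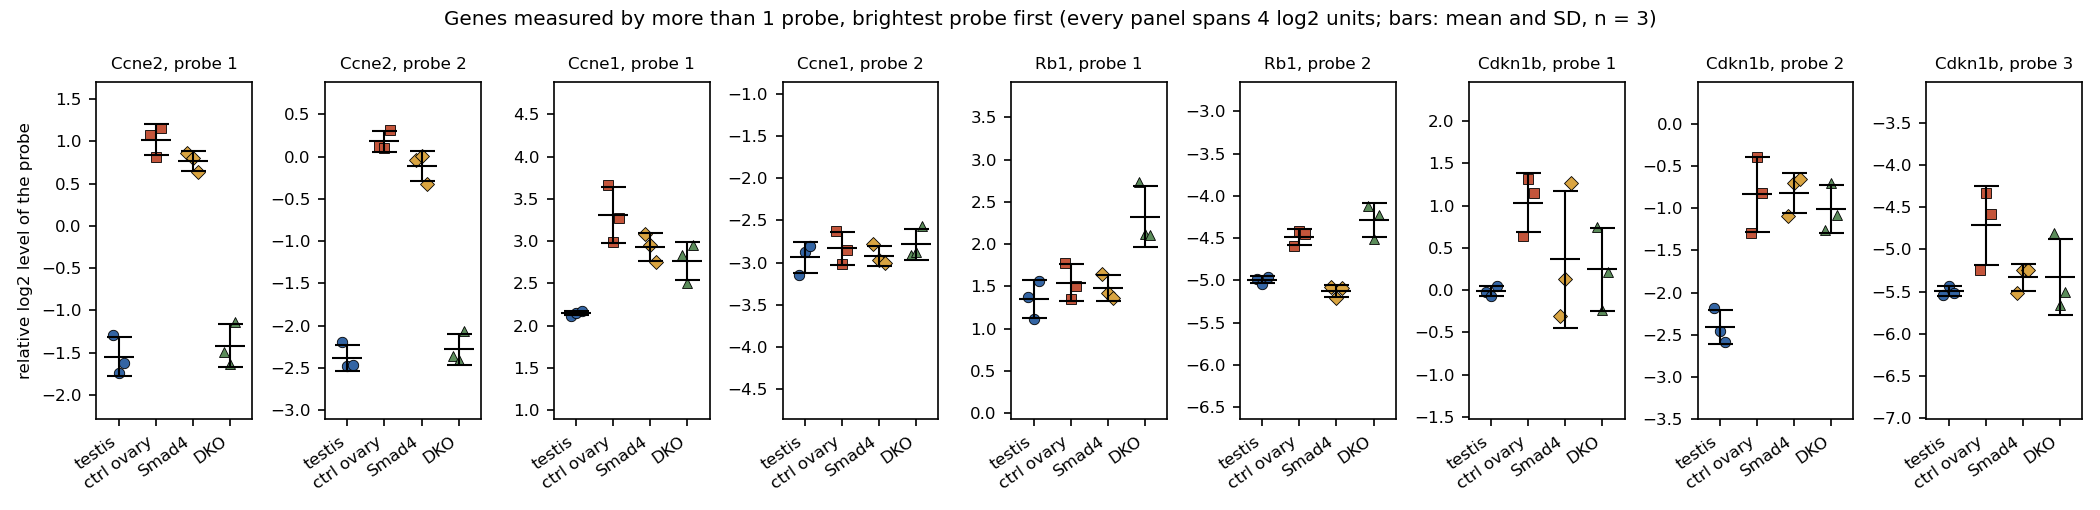
Relative log2 level of each probe of Ccne2, Ccne1, Rb1 and Cdkn1b on each array by group (points), with mean and SD of 3 arrays (bars), the brightest probe of a gene first. Both probes of Ccne2 show the same order of groups, while the dimmer Ccne1 probe stays between -2.93 and -2.78 in the group means and the probes of Rb1 and Cdkn1b differ in size of change.

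The 3 D cyclins, which pair with CDK4 and CDK6 in early G1, each had a pattern of their own. Ccnd3 had relative levels of 2.83, 3.03 and 3.15 in testes and 2.03, 2.17 and 1.90 in control ovaries. The values of Smad4 (Stella) ovaries were 1.96, 2.15 and 2.23, while those of DKO ovaries were 1.81, 1.89 and 2.24. Every testis lay above every ovary, and the groups of ovaries overlapped. Ccnd3 was 1.96-fold higher in testes than in control ovaries (log2 change 0.97 ± 0.14, limma adjusted p = 0.000277) and 2.03-fold lower in DKO ovaries than in testes (log2 change -1.02 ± 0.14, limma adjusted p = 0.000314). Between DKO and control ovaries it differed by -0.06, with a 95% confidence interval from -0.37 to 0.26. The profiles most like it were those of Rps6ka4 (r = 0.987) and Bcar1 (r = 0.985). The 6 Sertoli markers and the 4 fetal Leydig markers on the array all had this direction too. The part of either cell type in the Ccnd3 level of testes was not tested.

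Ccnd1 was lower in testes, where its relative levels were 0.49, 0.22 and -0.11, than in control ovaries, at 1.44, 0.84 and 0.82. The difference was 1.78-fold (log2 change -0.83 ± 0.25, limma adjusted p = 0.0201) and rested on few arrays: without control ovary 1 it was -0.63 with a limma adjusted p of 0.0724, and without testis 3 it was -0.68 with one of 0.0808. In Smad4 (Stella) ovaries the values were 0.62, 0.96 and 0.76, and in DKO ovaries 0.47, 0.59 and 1.33. These overlapped control ovaries, from which the DKO ovaries differed by -0.23 (95% confidence interval -0.79 to 0.33). Ccnd2 was the only one of the 10 genes that passed the test in no comparison. Its 12 values lay between 3.63 and 3.99, its 3 probes put testes above control ovaries by 0.06, 0.29 and 0.24, and its largest difference between groups was 0.20 (testes against control ovaries, 95% confidence interval -0.07 to 0.46, limma adjusted p = 0.208).

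Of the 4 kinase inhibitors, 3 were lower and 1 was higher in testes than in control ovaries, beside 16.8% and 17.2% of all genes tested, and none of them passed the test between DKO and control ovaries. Cdkn2b codes for p15, an inhibitor of CDK4 and CDK6 and a known target of TGF-beta and SMAD signalling in other cells. Its relative level was -0.90, -0.52 and -0.23 in testes and -2.05, -2.41 and -2.50 in control ovaries. Smad4 (Stella) ovaries had values of -2.59, -2.70 and -2.67, while those of DKO ovaries were -1.39, -2.37 and -2.09. All testes lay above all ovaries. Cdkn2b was 3.42-fold higher in testes than in control ovaries (log2 change 1.77 ± 0.25, limma adjusted p = 0.000187) and 2.64-fold lower in DKO ovaries than in testes (log2 change -1.40 ± 0.25, limma adjusted p = 0.00139). With slide as a block the latter difference was -0.92 and no longer passed (limma adjusted p = 0.192), and no DKO ovary shared a slide with a testis. Smad4 (Stella) ovaries were the lowest group and DKO ovaries lay above them without overlap, by 0.71 (95% confidence interval 0.16 to 1.25, limma adjusted p = 0.092), which did not pass. Without DKO ovary 2 the difference was 0.92 and passed (limma adjusted p = 0.0485). The genes most like Cdkn2b were Trim61 (r = 0.985) and Syce1l (r = 0.982).

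Cdkn1a, coding for the broad kinase inhibitor p21, was lowest in testes. Its relative level was -2.30, -2.08 and -1.80 in testes and -1.10, -1.22 and -0.97 in control ovaries. The values of Smad4 (Stella) ovaries were -1.26, -1.27 and -0.85, while those of DKO ovaries were -0.69, -0.59 and -0.78. The DKO ovaries were the highest group, and did not overlap any other. It was 1.95-fold lower in testes than in control ovaries (log2 change -0.96 ± 0.15, limma adjusted p = 0.000491) and 2.59-fold higher in DKO ovaries than in testes (log2 change 1.37 ± 0.15, limma adjusted p = 7.64e-05). Against the other ovaries the DKO ovaries were higher by 0.41 (control ovaries, 95% confidence interval 0.07 to 0.75, limma adjusted p = 0.0835) and by 0.44 (Smad4 (Stella) ovaries, 95% confidence interval 0.10 to 0.78, limma adjusted p = 0.0944), and neither passed. Within slide 2 the difference from control ovaries was 0.46, and within slide 3 that from Smad4 (Stella) ovaries was 0.35. Rasgrp1 (r = 0.963) and Irf2bp2 (r = 0.96) had the most similar profiles.

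Cdkn1b, coding for p27, was lower in testes, at -2.58, -2.65 and -2.68, than in control ovaries, at -1.96, -1.14 and -1.42. Values of -2.31, -1.94 and -1.55 were found for Smad4 (Stella) ovaries and -1.77, -2.20 and -2.12 for DKO ovaries, above every testis and overlapping the control ovaries. The testes were 2.19-fold lower than control ovaries (log2 change -1.13 ± 0.23, limma adjusted p = 0.00231). With slide as a block the difference was -0.67 (limma adjusted p = 0.086), which was also its size within slide 1. The 3 probes were called lower in testes when tested one by one, by -1.57, -0.78 and -1.05. The second of these, at chr6:134873606-134873665, was dim, with a mean of -5.22, and was well above background on 10 of the 12 arrays, all but control ovary 1 and DKO ovary 3. They disagreed on the DKO ovaries. The probe printed above was higher in DKO ovaries than in testes by 1.40 (limma adjusted p = 0.00102 over all probes), with means of -0.84 ± 0.45 in control ovaries, -0.82 ± 0.23 in Smad4 (Stella) ovaries, -1.01 ± 0.28 in DKO ovaries and -2.41 ± 0.20 in testes. The dim probe and the one at chr6:134875215-134875274 gave 0.17 and 0.26 for that difference, and neither passed. The mean of the 3 probes gave 0.61 (95% confidence interval 0.10 to 1.12, limma adjusted p = 0.0619). With slide as a block it turned to -0.03, and it passed with quantile normalization (0.63, limma adjusted p = 0.0478), with only the 6 arrays of both groups (limma adjusted p = 0.0198) and by the methods' t-test (adjusted p = 0.0468).

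Cdkn2a codes for p16 and p19Arf from different first exons, and its single probe, at chr4:88920545-88920604 on the minus strand of mm9, is annotated to both transcripts, so they could not be told apart. Its relative level was -3.65, -3.52 and -3.51 in testes and -1.85, -1.92 and -3.25 in control ovaries. Smad4 (Stella) ovaries had values of -2.02, -2.42 and -1.97, while those of DKO ovaries were -3.29, -2.35 and -3.11. Control ovary 3 lay far below control ovaries 1 and 2 and just above the testes. Like control ovary 2 it carried no Cre, and it was the only Smad4Flox/Flox control ovary. The part of genotype in the value of this single array was not tested. The probe was spotted 10 times on each array, and the SD of these spots was 0.0583 to 0.141 within an array. Testes were 2.33-fold lower than control ovaries (log2 change -1.22 ± 0.35, limma adjusted p = 0.0161), a call that was lost without control ovary 1 (-0.97, limma adjusted p = 0.0593) or 2 (-1.01, limma adjusted p = 0.0595). The DKO ovaries differed from control ovaries by -0.58 (95% confidence interval -1.36 to 0.21). Without control ovary 3 that difference was -1.03 and passed (limma adjusted p = 0.0206).

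Sequence upstream of the transcription start was held in RefSeq (GRCm38.p6) for 6 of the 10 genes, with 9 start sites, and not for Rb1, Ccnd1, Ccnd2 and Ccne2. In the 250 bases before each start, 5 motifs were searched on both strands. They were E2F sites (TTTCCCGC, TTTGGCGC, TTTGCCGC or TTTCGCGC), found in 1.86% of 32851 promoters, GC boxes (GGGCGG, in 32.7%), a GC element known from BMP-responsive genes (GGCGCC, in 9.59%), the SMAD palindrome (GTCTAGAC, in 0.167%) and cell cycle homology elements (TTTGAA or TTCGAA, in 17.1%). An E2F match was found in 1 of the 9, the upstream start of Cdkn2a, 99 bases before the start. The GC element was matched 2 times before Cdkn1b and 1 time before that start of Cdkn2a, and the SMAD palindrome before 0 of the 9. GC boxes were matched 4 times before Ccne1, 1 or 2 times before Cdkn1b, the upstream start of Cdkn2a, both starts of Ccnd3 and 1 of the 2 starts of Cdkn1a, and 0 times before Cdkn2b. A cell cycle homology element was matched before Cdkn2b alone, 1 time. Cdkn2a is printed for its E2F match, in capitals, and Ccne1 for its GC boxes, in capitals on whichever strand they lie, each 5′ to 3′ on the minus strand, and Cdkn2b, with nothing in capitals, as the inhibitor among the 10 genes with the largest difference between testes and control ovaries. A match is a description of letters and says nothing of binding.
Cdkn2a, chr4:89294620-89294869: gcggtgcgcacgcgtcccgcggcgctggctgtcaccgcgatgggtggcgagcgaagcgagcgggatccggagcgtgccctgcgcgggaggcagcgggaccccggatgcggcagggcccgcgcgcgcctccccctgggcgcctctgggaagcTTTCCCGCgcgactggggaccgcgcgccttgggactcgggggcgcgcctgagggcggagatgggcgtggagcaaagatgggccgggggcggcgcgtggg
Ccne1, chr7:38107491-38107740: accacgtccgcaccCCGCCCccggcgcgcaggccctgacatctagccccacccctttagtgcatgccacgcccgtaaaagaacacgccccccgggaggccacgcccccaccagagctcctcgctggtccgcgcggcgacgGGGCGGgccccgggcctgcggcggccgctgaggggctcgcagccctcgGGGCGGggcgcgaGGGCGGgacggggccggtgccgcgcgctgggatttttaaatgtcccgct
Cdkn2b, chr4:89311033-89311282: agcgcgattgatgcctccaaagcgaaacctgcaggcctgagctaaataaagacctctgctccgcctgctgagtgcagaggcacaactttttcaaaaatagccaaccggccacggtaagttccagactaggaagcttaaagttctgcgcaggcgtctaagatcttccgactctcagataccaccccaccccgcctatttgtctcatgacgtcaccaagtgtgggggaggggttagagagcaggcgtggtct

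Rb1, whose protein restrains the E2F factors until it is phosphorylated, was highest in DKO ovaries. Its relative level was -0.69, -1.19 and -1.05 in DKO ovaries, whereas control ovaries had -1.41, -1.53 and -1.47. The values of Smad4 (Stella) ovaries were -1.71, -1.90 and -1.87, while those of testes were -1.81, -1.97 and -1.70. Every DKO ovary lay above every other gonad. Rb1 was 1.80-fold higher in DKO than in Smad4 (Stella) ovaries (log2 change 0.85 ± 0.13, limma adjusted p = 0.00306) and 1.80-fold higher in DKO ovaries than in testes (log2 change 0.85 ± 0.13, limma adjusted p = 0.000739). Against control ovaries it was 1.41-fold higher (log2 change 0.49 ± 0.13, limma adjusted p = 0.0235), which was short of the 1.5-fold that was asked for. The brighter probe, at chr14:73595408-73595467, gave 0.78 for that difference and passed when tested by itself (limma adjusted p = 0.0159), whereas the dimmer probe printed above gave 0.20 (limma adjusted p = 0.244). The dimmer probe had a mean of -4.72 over all arrays and the brighter one 1.67. On the dimmer probe DKO ovary 2 (-4.51) lay below control ovaries 2 (-4.42) and 3 (-4.45). Smad4 (Stella) ovaries differed from control ovaries by -0.07 on the brighter probe and by -0.64 on the dimmer one. Between DKO and Smad4 (Stella) ovaries both probes gave nearly one size, 0.85 and 0.84. With slide as a block that difference was 0.77 (limma adjusted p = 0.0644), and it was 0.77 within slide 3. Zcchc2 had the most similar profile (r = 0.977).

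Counted over the 10 genes, 2 were higher and 6 lower in testes than in control ovaries, where 34% of all genes tested were called, 17.2% higher and 16.8% lower. In that comparison the arrays of 10 of the 10 genes did not overlap, as was true of 58.4% of all genes. Between DKO and control ovaries 1 of 10 was called, Ccne2, beside 14.7% of all genes, and the arrays of 3 did not overlap, beside 32.9%. Between DKO and Smad4 (Stella) ovaries 2 of 10 were called, Ccne2 lower and Rb1 higher, beside 8.45%, 4.06% lower and 4.38% higher, and the arrays of 4 did not overlap, beside 31.2%. Between DKO ovaries and testes 4 of 10 were called (3 to 6 under the alternatives), Cdkn1a and Rb1 higher and Cdkn2b and Ccnd3 lower, beside 25.7%, and the arrays of 7 did not overlap, beside 50.5%. Between Smad4 (Stella) and control ovaries 0 of 10 were called by limma and 0 by the methods' t-test, beside 0.271% of all genes (0.133% higher and 0.138% lower). Of the 10, 1 gene, Rb1, had an unadjusted p under 0.05 there (log2 change -0.35, limma unadjusted p = 0.0237), beside 19.7% of all genes, and the arrays of 3 did not overlap, beside 28.1%. Its brighter probe gave -0.07 (limma adjusted p = 0.879 over all probes) and its dimmer probe -0.64 (limma adjusted p = 0.0636), so the Rb1 probes disagreed here too. Median changes of the 10 genes were -0.73, -0.14, 0.00, 0.49 and -0.24 in the order of these comparisons, and the medians over all genes lay between -0.025 and 0.018. The comparisons with control ovaries share the same 3 arrays, as do those with DKO ovaries.

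**Figure D3:**
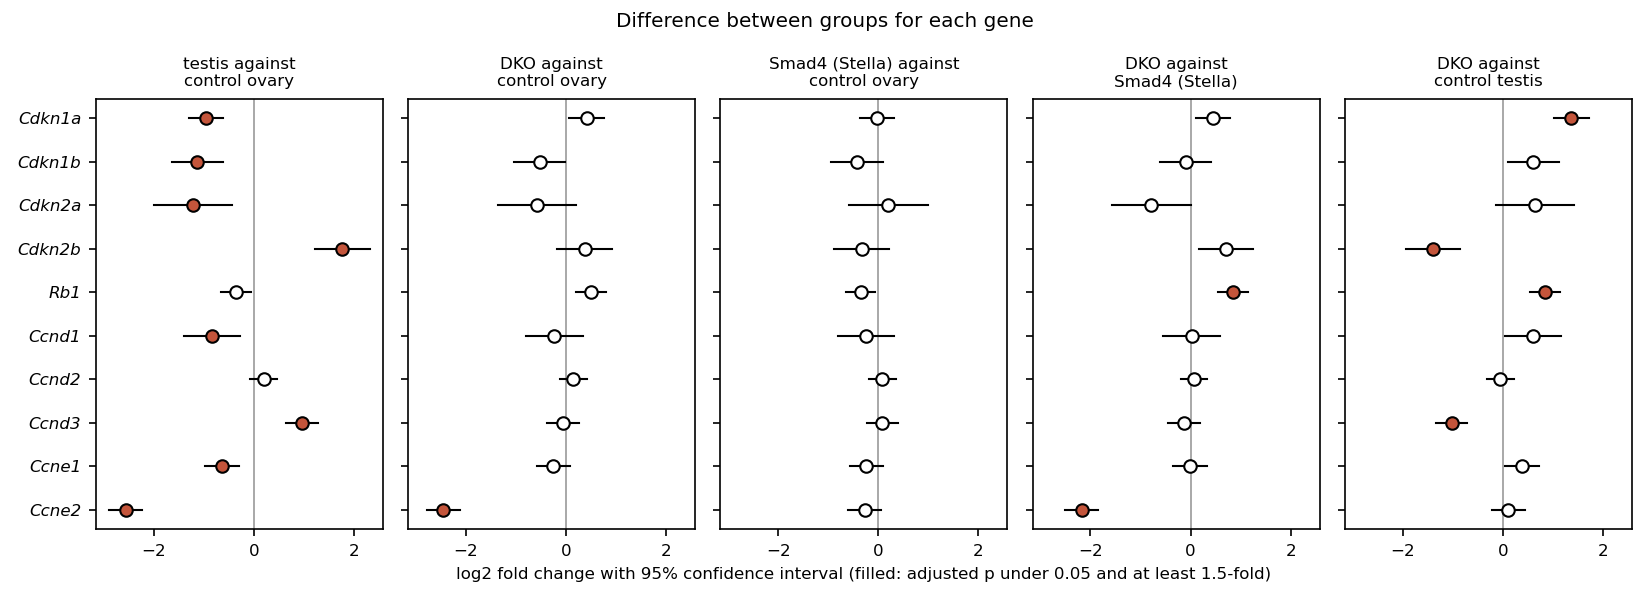
Log2 fold change of each of the 10 genes in 5 comparisons (points) with its 95% confidence interval (lines); filled points passed an adjusted p of 0.05 and 1.5-fold. Ccne2 is filled in 3 panels, at -2.56, -2.45 and -2.17, and no gene is filled for Smad4 (Stella) against control ovaries.

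Another 39 genes of G1 and S phase control were followed for context, and 17 of them were called in at least 1 comparison, as were 43.7% of all genes tested. Between DKO and control ovaries 6 were higher and 1 lower, beside 6.69% and 7.98% of all genes, with a median change of 0.11 on the log2 scale. Cdk6, a kinase that D cyclins activate, had relative levels of -1.13, -1.06 and -1.01 in control ovaries and -1.06, -1.02 and -0.60 in testes. Smad4 (Stella) ovaries had values of -0.39, -0.71 and -0.20, while those of DKO ovaries were 0.22, 0.36 and 0.37. The DKO ovaries lay above all other gonads. Cdk6 was 2.61-fold higher in DKO than in control ovaries (log2 change 1.38 ± 0.15, limma adjusted p = 0.000155), 1.69-fold higher than in Smad4 (Stella) ovaries (limma adjusted p = 0.0105) and 2.31-fold higher than in testes (limma adjusted p = 0.000163). The calls against control ovaries and testes were kept in all 16 alternatives, with log2 changes down to 0.71 and 0.91. The call against Smad4 (Stella) ovaries was kept in 10 of 16, and the change was 0.29 with the brightest probe (limma adjusted p = 0.215). The other genes higher in DKO than in control ovaries included Cdk4, the other D cyclin kinase (log2 change 0.63), and the activating E2F factors E2f1 (0.61) and E2f3 (0.89). The rest were the A-type cyclin Ccna1 (1.59) and the B-type cyclin Ccnb1 (1.15). The lower one was Fbxw7, part of a ubiquitin ligase that marks E cyclins for destruction (log2 change -0.75, limma adjusted p = 0.00668). These calls were kept in 12 (Cdk4), 5 (E2f1), 12 (E2f3), 14 (Ccna1), 15 (Ccnb1) and 13 (Fbxw7) of 16 alternatives. With the brightest probe the change was 0.39 for E2f1 (limma adjusted p = 0.266) and 0.43 for E2f3 (limma adjusted p = 0.073). Ccna1 was dim, at -5.09, -5.38 and -5.90 in control ovaries, and with normexp background correction its change was 0.44.

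Between DKO and Smad4 (Stella) ovaries Cdk6, E2f3 and Ccna1 were higher and Fbxw7 was lower, 3 and 1 of 39 beside 4.38% and 4.06% of all genes. Only DKO ovary 3 shared a slide with the Smad4 (Stella) ovaries, and with slide as a block none of the 4 was called, with changes of 0.80 for Cdk6 (limma adjusted p = 0.0885), 0.56 for E2f3 (0.044, under 1.5-fold), 0.81 for Ccna1 (0.242) and -0.65 for Fbxw7 (0.0856). Between testes and control ovaries 7 of the 39 were higher and 5 lower, beside 17.2% and 16.8% of all genes, with a median of 0.17. The lower ones included Cdkn1c, coding for the inhibitor p57 and known as an imprinted gene, which had relative levels of 3.78, 3.15 and 2.95 in testes and 5.23, 5.96 and 6.01 in control ovaries, with no overlap. It was 5.43-fold lower in testes than in control ovaries (log2 change -2.44 ± 0.28, limma adjusted p = 4.68e-05) and 5.03-fold higher in DKO ovaries than in testes (limma adjusted p = 0.000111), while DKO and control ovaries overlapped. The others that were lower in testes were the inhibitor Cdkn2d (log2 change -0.80), E2f2 (-0.68), E2f5 (-0.73) and Mycn (-0.61). Those higher in testes were Cdk4 (0.67), E2f1 (0.84), E2f7 (0.94), Cdk1 (1.11), Ccna1 (1.43), Ccna2 (0.85) and Ccnb1 (1.16). The last 4 belong to 11 genes followed as later cyclins and S phase genes. The other 7 of these were not called: Pcna (0.02), Mcm5 (-0.08), Cdt1 (0.22), Mcm2 (0.31), Mki67 (0.43), Ccnb2 (0.45) and Cdc6 (0.49). For the dim Ccna1 the change in testes was 0.34 with normexp background correction, under 1.5-fold. Between DKO ovaries and testes 5 were higher, Cdkn1c, Cdk2 (0.78), Cdk6, E2f5 (0.60) and Mycn (0.98), and 3 lower, the inhibitor Cdkn2c (-0.71), E2f7 (-0.87) and Cdk1 (-0.79), beside 12.7% and 13% of all genes. With slide as a block 8 of the 39 were called there too, but not the same 8: Cdk1 (-0.39), Cdk2 (0.28), Cdkn1c (1.48), Cdkn2c (-0.62) and E2f7 (-0.95) were no longer called, with limma adjusted p between 0.0502 and 0.453, nor was E2f2 in testes against control ovaries (-0.34) or Cdk4 in DKO against control ovaries (0.58). Between Smad4 (Stella) and control ovaries 0 of 39 were called by limma and 0 by the methods' t-test, beside 0.271% of all genes by limma, and 4 had an unadjusted p under 0.05, beside 19.7%.

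**Figure D4:**
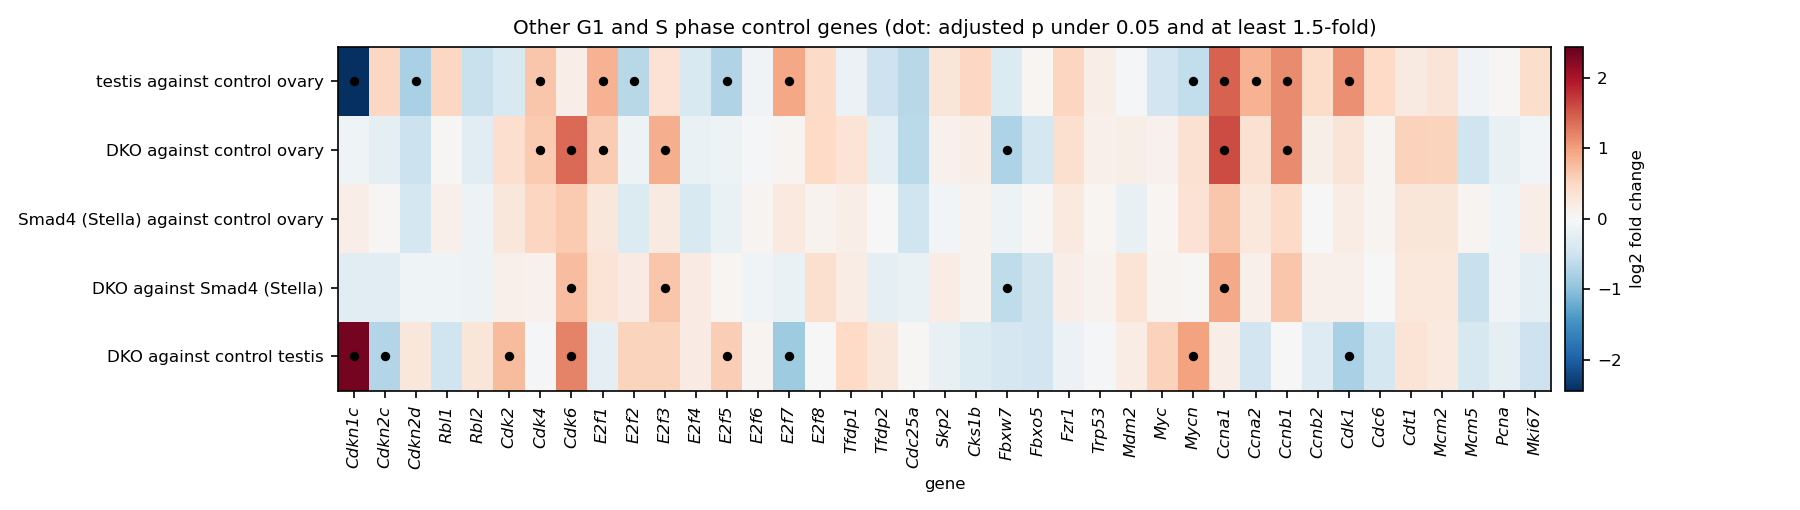
Log2 fold change of 39 other G1 and S phase control genes (columns) in 5 comparisons (rows), in colour from blue (lower in the first group) to red (higher); dots mark an adjusted p under 0.05 with at least 1.5-fold. The row of Smad4 (Stella) against control ovaries has 0 dots, and Cdk6 has a dot in each of the rows that set DKO ovaries against another group.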

How the data were processed

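RNA of E14.5 gonads was hybridised to 12 single-colour arrays, 3 per group, with groups taken from the labels. The authors deposited the Feature Extraction 11.0.1.1 output of each array, holding the processed intensity (corrected for background), the mean and local background intensity, the flag for spots well above background and the probe sequence, besides a table of the same processed intensity without scaling. Probe coordinates refer to mm9. Each array's log2 processed intensity was reduced by its own 75th percentile (control spots excluded). Spots marked as outliers were dropped and the rest averaged per probe. A probe counted as detected where at least 0.5 of its spots were well above background, and 27311 of 41174 probes were retained because all arrays of some group detected them. Averaging the probes of a gene gave 18844 genes. RefSeq symbols were used for 27050 probes.

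A linear model of all 12 arrays without blocking was fitted in limma 3.58.1 (R 4.3.3, with the package data.table in version 1.17.8), and p-values were adjusted by Benjamini-Hochberg over all genes. Calls needed an adjusted p under 0.05 and at least 1.5-fold. Exact permutation of 3 arrays against 3 cannot give a p under 0.1 and was not used. The number of arrays limits the precision, and 0 spots were saturated. The fit was tested on simulated data.

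Named were the 10 genes, the other G1 and S phase genes called in at least 1 comparison, and the 2 genes most like each called gene by Pearson r. Those not given above were Phtf2 (0.951) for Rb1, Rbpj (0.95) and Bcat1 (0.928) for Cdkn1b, and Mxd4 (0.919) and Ifit1 (0.917) for Cdkn2a. For Ccnd1 they were Pycard (0.919) and Cma1 (0.908), and for Ccne1 Chn1 (0.971) and Anapc4 (0.959). The genes and lists were chosen with earlier results of these data known. Marker lists were summed on the linear scale over all probes. Alternatives were quantile normalization, the unscaled table, normexp with an offset of 50, the brightest probe, no filter, slide or replicate number as a block, the 2 groups only, the t-test of the study's methods, no minimum fold and each array left out. Testing each probe by itself was added after seeing the data.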

Additional observations from a re-analysis of the deposited data

How the results depend on the processing

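No called change of the 10 genes reversed under any alternative run. The calls of Ccne2 in 3 comparisons, of Cdkn2b and Ccnd3 in testes against control ovaries, and of Cdkn1a and Rb1 in DKO ovaries against testes were kept in all 16 alternatives of each, whereas 20 of 240 refits of called changes lost the call. The cause was not tested where none is given. The labels' replicate numbers mark no litter, and deviations of same-numbered samples correlated between -0.184 and 0.154. With the replicate block 8, 1, 0, 2 and 4 of the 10 genes were called (testes, DKO and Smad4 (Stella) against control ovaries, DKO against Smad4 (Stella) ovaries, DKO against testes), as without it, and 11, 7, 0, 4 and 8 of the other 39. Between DKO and Smad4 (Stella) ovaries 1 of the 10 genes was called with the unscaled table, with normexp, with slide as a block and by the methods' t-test, and of the other 39, where 4 were called, 0 with these 4 settings and with no filter on dim probes, and 2 with only the 6 arrays of both groups. For DKO against control ovaries the count of the 10 genes was 2 with the brightest probe, with no minimum fold and with each probe tested by itself. For testes against control ovaries it was 4 with the unscaled table, which leaves brightness differences between arrays in the spread and moved the median of all genes by 0.09 there and by up to 0.4 (Smad4 (Stella) against control ovaries), and changes are given relative to that median. For DKO ovaries against testes it was 3 with the unscaled table, 5 with quantile normalization (Cdkn1b added), normexp (Ccnd1 added, 0.60, limma adjusted p = 0.0498), the brightest probe (Ccne1 added, 0.62) or the 6 arrays of both groups (Cdkn1b added), and 6 probe by probe. It was 4 with slide as a block, where Ccne1 was added and Cdkn2b lost. The calls lost with that table were Cdkn1a (limma adjusted p = 0.0552), Cdkn2a (0.0899), Ccnd1 (0.0774) and Ccne1 (0.173) in testes against control ovaries, Ccnd3 in DKO ovaries against testes (0.056) and Rb1 in DKO against Smad4 (Stella) ovaries (0.43), and the methods' t-test lost those of Ccnd1, Cdkn2a, Cdkn2b (DKO ovaries against testes) and Rb1 (DKO against Smad4 (Stella) ovaries), the last also being under 1.5-fold with normexp (0.53). Of the other 39, 7 (testes) and 3 (DKO) were called from the unscaled values against control ovaries, and 3 for DKO ovaries against testes. For the latter 5 were called with no filter, and by the methods' t-test 2 were called for DKO against control ovaries. With no minimum fold the counts were 21, 12 and 16 in testes against control ovaries, DKO against control ovaries and DKO against testes, and probe by probe 19 in the first.

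Leaving out each array in turn gave 5 to 8 of the 10 genes in testes against control ovaries, the lowest without control ovary 1, and 1 to 2 in DKO against control ovaries, with 2 without control ovary 1 (Cdkn1b added), control ovary 3 (Cdkn2a added) or DKO ovary 2 (Rb1 added). Of the other 39, 2 to 5 were called in DKO against Smad4 (Stella) ovaries, with 2 without DKO ovary 1 or Smad4 (Stella) ovary 2 or 3. Changes that were not called reversed as follows. With an array left out, Smad4 (Stella) against control ovaries ranged from -0.17 to 0.04 for Cdkn1a, -0.25 to 0.45 for Cdkn2a and -0.01 to 0.15 for Ccnd2. DKO against Smad4 (Stella) ovaries ranged from -0.11 to 0.07 for Ccne1, -0.25 to 0.18 for Ccnd1 and -0.29 to 0.09 for Cdkn1b. DKO against control ovaries ranged from -0.19 to 0.03 for Ccnd3, and DKO ovaries against testes from -0.01 to 0.23 for Ccne2 and -0.11 to 0.05 for Ccnd2. With slide as a block, Smad4 (Stella) against control ovaries gave -0.16 for Ccnd2, -0.31 for Ccnd3, 0.11 for Cdkn1a and 0.01 for Cdkn2b, DKO against Smad4 (Stella) ovaries gave 0.12 for Ccnd3 and 0.19 for Ccne1, and DKO ovaries against testes gave -0.03 for Cdkn1b. With normexp the values were 0.02 for Ccne1 (DKO against Smad4 (Stella) ovaries) and -0.03 for Ccne2 (DKO ovaries against testes).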
